A study of Mus musculus with 6 samples.

Results

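The interleukin-6 (IL-6) family of cytokines, their receptors and their feedback inhibitor Socs3 were described as 10 genes: the ligands Il6, Il11, Lif, Osm and Clcf1, the receptor chains Il6ra, Il6st, Lifr and Osmr, and Socs3. They were matched by gene symbol, and 12 of the 39429 non-control probes on the array matched them, 3 for Lifr and 1 for each of the others. Gene expression was measured on 1-colour Agilent arrays in primary prostate cells of mice, cultured without serum in Prostacult medium with bFGF and bEGF. The Rb deleted group, p53-/- Rb∆f/∆f (n = 3), had been infected with an adenovirus carrying Cre recombinase, which removes the loxP-flanked part of Rb, and the Rb intact group, p53-/- Rbf/f (n = 3), with an adenovirus carrying lacZ. Both groups lacked p53, RNA was taken 48 hours after infection, and the age of the mice is not given in the sources used here. The virus and the Rb status went together in every culture and cannot be told apart.

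Cytokines of this family signal through the shared chain gp130, the product of Il6st, which pairs with a ligand-specific chain and activates JAK kinases and the transcription factor Stat3. Stat3 induces Socs3, which binds gp130 and the JAK kinases and limits the signal. In prostate tissue, IL-6 is made by stromal and epithelial cells and acts on growth, differentiation and inflammation.

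The ligand genes Il11, Lif and Il6 and the feedback gene Socs3 rose in Rb deleted cells, between 1.37-fold for Socs3 and 2.07-fold for Il11, and the receptor gene Lifr fell to 76.1% of the intact signal. A gene was tested if all 3 arrays of either group read it well above background. Of the 9 members that met this, 4 rose, 1 fell and 4 did not pass the test, which was limma fitted across 13729 genes with a Benjamini-Hochberg adjusted p under 0.05. The same test put 9.67% of all tested genes higher and 10.8% lower in Rb deleted cells, 20.4% in all. The median difference was 0.12 on the log2 scale over the 9 members and 0.01 over all tested genes. The median was 0.55 over the 4 measured ligands and -0.20 over the 4 receptor chains, and the Rb deleted and Rb intact arrays did not overlap for 7 of the 9 members, against 45.2% of all tested genes. Of those 7, 4 were higher and 3 lower in Rb deleted cells, where the shares of all tested genes were 23.7% and 21.5%. Osm, the oncostatin M gene, read below that mark on all 6 arrays and was not tested.

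The arrays had between 58.9% and 63.3% of probes well above background, and no spot was saturated. Rb1, the targeted gene, checked the labels: it was lower by 1.96 ± 0.05 on the log2 scale (SE, limma adjusted p = 8.15e-05) in Rb deleted cells. Rb intact 1, 2 and 3 and Rb deleted 1 lay on the first slide and Rb deleted 2 and 3 on the second, and a comparison made inside 1 slide therefore has a single Rb deleted array. The study names 3 independent experiments, but the labels do not say whether the samples of a group came from separate animals, and the p-values measure the spread between these samples. For a single gene the exact two-sided permutation test cannot give less than 0.1 with 3 against 3 arrays, and it gave 0.1 for each of the 5 members that passed limma's threshold.

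The cultures were checked against markers of prostate cell types. All 10 mesenchymal markers, Col1a1, Dcn and Pdgfra among them, were well above background in at least 1 group, while Krt15, a basal keratin gene, read below that mark on all arrays. Krt5, the defining basal keratin gene, was well above background on 2 of 3 Rb deleted arrays and 1 of 3 Rb intact arrays by its brighter probe, and the luminal secretory gene Pbsn on 0 Rb deleted arrays and at most 1 Rb intact array. The basal transcription factor gene Trp63 and the luminal keratin gene Krt18 were measured on all arrays. Of the leukocyte markers, Ptprc (CD45) and Lyz2 were not well above background on any array, while Itgam, Csf1r and Cd3e were measured.

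Promoter sequences are shown for the 4 members that rose, so that the letters near their starts can be compared. They come from RefSeq on build GRCm38.p6, whose table held 10 windows for 8 of the 10 members, and the 250 bases before the start are printed 5′ to 3′ on the gene's strand in lower case, with motif matches in capitals. Both strands were searched for the AP-1 motif TGANTCA, the STAT motif TTCNNNGAA, the NF-kB motif, whose match is printed in the Il6 window, the cyclic AMP response element TGACGTCA, the E2F motifs TTTCCCGC and TTTGGCGC, and the TATA motif TATAAA, none of which overlapped another in these windows. The windows lie at chr5:30012864-30013113 (plus strand) for Il6, chr7:4778142-4778391 (minus strand) for Il11, chr11:4257318-4257567 (plus strand) for Lif and chr11:117969367-117969616 (minus strand) for Socs3.
Il6: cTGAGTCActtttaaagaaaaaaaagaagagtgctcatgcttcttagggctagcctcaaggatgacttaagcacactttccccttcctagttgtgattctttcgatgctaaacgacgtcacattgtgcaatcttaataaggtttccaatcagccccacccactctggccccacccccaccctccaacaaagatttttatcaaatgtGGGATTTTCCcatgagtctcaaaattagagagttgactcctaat
Il11: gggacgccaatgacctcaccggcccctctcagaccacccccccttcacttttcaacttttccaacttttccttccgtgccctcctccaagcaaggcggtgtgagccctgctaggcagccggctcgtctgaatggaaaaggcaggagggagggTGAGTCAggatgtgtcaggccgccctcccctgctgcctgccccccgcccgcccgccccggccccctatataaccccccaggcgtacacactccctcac
Lif: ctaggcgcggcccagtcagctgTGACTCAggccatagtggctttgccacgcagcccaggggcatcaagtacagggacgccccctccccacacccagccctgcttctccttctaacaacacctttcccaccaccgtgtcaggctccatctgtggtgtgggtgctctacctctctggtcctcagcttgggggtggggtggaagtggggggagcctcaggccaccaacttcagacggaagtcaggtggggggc
Socs3: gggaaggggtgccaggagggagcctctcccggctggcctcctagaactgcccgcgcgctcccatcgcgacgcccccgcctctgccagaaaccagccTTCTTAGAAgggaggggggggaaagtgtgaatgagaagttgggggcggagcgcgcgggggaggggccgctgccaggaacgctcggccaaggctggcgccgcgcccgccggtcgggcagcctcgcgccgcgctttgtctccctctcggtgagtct
The capitals in Il6 are an AP-1 match that begins 249 bases before the start and an NF-kB match that begins 44 bases before it. Il11 and Lif each hold 1 AP-1 match, which begins 98 bases before the start in Il11 and 228 bases before it in Lif, and Socs3 holds 1 STAT match, which begins 154 bases before the start. The windows of the receptor chains Il6ra, Il6st, Lifr and Osmr, and a second window of Il11, held none of these motifs. Of 32851 such windows of mouse genes, 6.75% held the AP-1 motif, 7.02% the STAT motif and 0.356% the NF-kB motif. A match is a run of letters and not a measured binding site, and no match says only that these letters are not in the window.

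Il11, a cytokine of stromal and epithelial cells that acts through its own receptor chain and gp130, changed most. Its log2 level relative to the 75th percentile of the array was -0.69, -0.54 and -0.50 in Rb deleted 1, 2 and 3, against -1.62, -1.67 and -1.59 in Rb intact 1, 2 and 3. Every Rb deleted array lay above every Rb intact array, and the gap between the groups was several times the spread within either. Il11 averaged -0.58 ± 0.10 in Rb deleted cells and -1.63 ± 0.04 in Rb intact cells (SD, n = 3 each), and it rose by 1.05 ± 0.07 (SE, 2.07-fold, limma adjusted p = 0.000398). By size it was the rise ranked 77 of the 13729 tested genes. With slide as a block, a fit that called 4.89% of all tested genes, the difference was 0.93 (limma adjusted p = 0.0093). The first slide alone, where 1.1% of genes were called, gave the same 0.93, with its single Rb deleted array assumed to have the spread of the other group (limma adjusted p = 0.0496).

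Lif encodes leukemia inhibitory factor, which signals through the LIF receptor and gp130. Its level was -2.20, -2.19 and -2.07 in Rb deleted 1, 2 and 3, against -2.72, -2.74 and -2.77 in Rb intact 1, 2 and 3. The groups did not overlap, and the Rb intact arrays lay close together. Lif rose by 0.58 ± 0.06 (SE, 1.50-fold, limma adjusted p = 0.00169). The difference was 0.54 with slide as a block (limma adjusted p = 0.0376), which is also the difference within the first slide and rests on Rb deleted 1. In the first slide alone the call of Lif was lost.

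Il6 encodes interleukin-6, which binds the IL-6 receptor in membrane or soluble form. Its level was 1.76, 1.89 and 1.92 in Rb deleted 1, 2 and 3, against 1.50, 1.23 and 1.31 in Rb intact 1, 2 and 3. Rb intact 1 was the highest of its group and lay below every Rb deleted array, so the groups did not overlap. Il6 rose by 0.51 ± 0.09 (SE, 1.43-fold, limma adjusted p = 0.0114). Of the 4 rises this was the one whose call was lost when single arrays were left out: without Rb deleted 2 or Rb deleted 3 the difference was 0.49 or 0.48 with limma adjusted p = 0.0562 or 0.0550. With slide as a block or within the first slide it was 0.42 (limma adjusted p = 0.156 and 0.333).

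Clcf1, which encodes a cytokine that acts through the ciliary neurotrophic factor receptor, gp130 and Lifr, did not pass the test. Its level was -1.91, -1.90 and -1.78 in Rb deleted 1, 2 and 3, against -1.70, -1.66 and -1.75 in Rb intact 1, 2 and 3. The highest Rb deleted array lay just below the lowest Rb intact array. The difference was -0.16 ± 0.06 (SE, 95% interval -0.31 to -0.01 before adjustment, limma adjusted p = 0.117), and Clcf1 was therefore the 1 measured ligand without a rise.

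**Figure D1:**
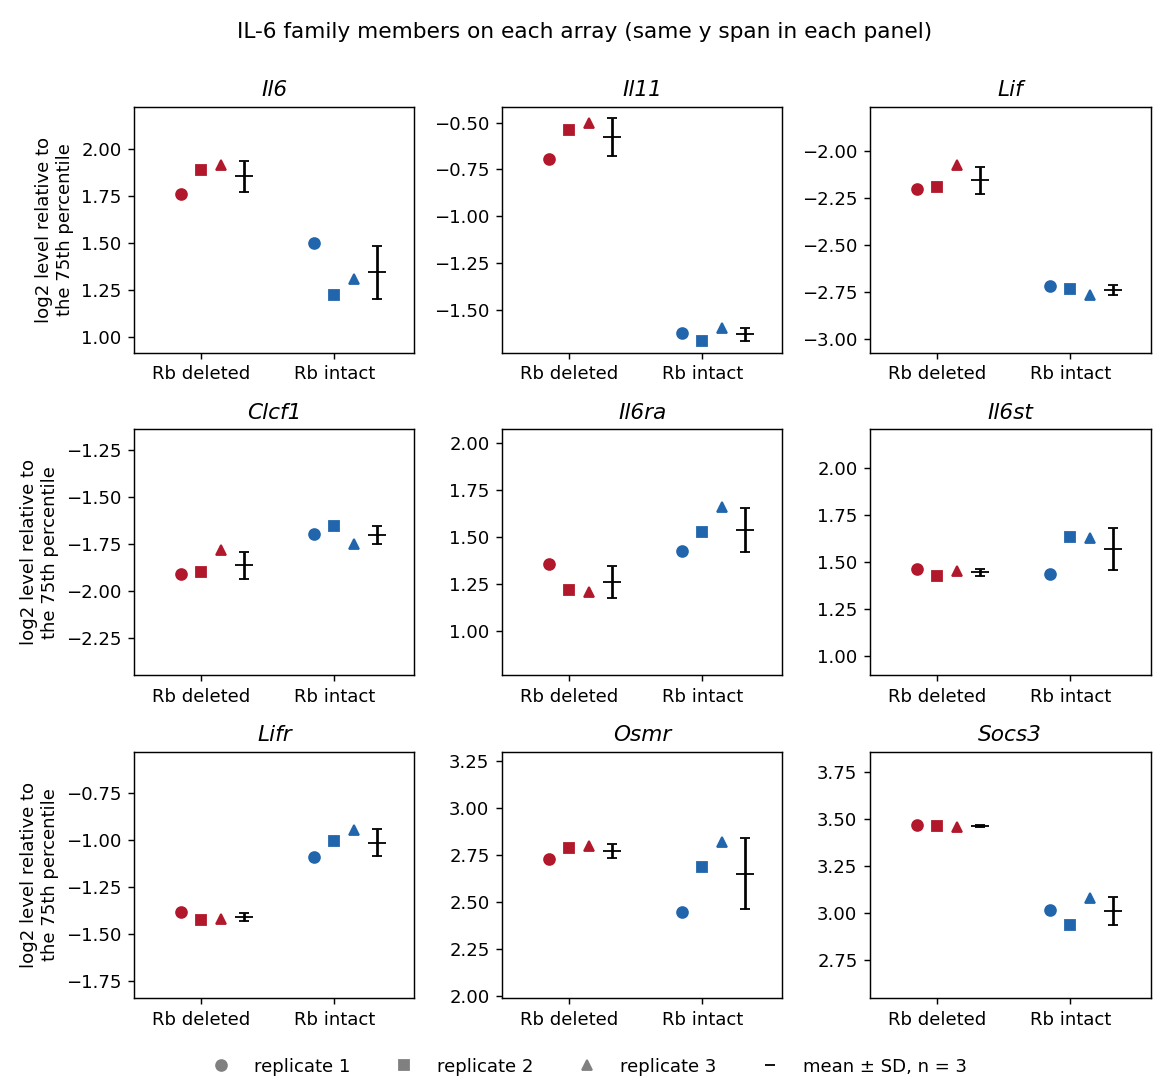
Log2 level relative to the array's 75th percentile for the 9 measured members, with 1 point per array, Rb deleted on the left and Rb intact on the right of each panel, and bars for mean ± SD (n = 3 each). Il11, Lif, Il6 and Socs3 sit higher on every Rb deleted array than on any Rb intact array, Lifr sits lower, and for Il6st and Osmr the groups overlap.

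Socs3, the feedback inhibitor, rose by 0.45 ± 0.06 (SE, 1.37-fold, limma adjusted p = 0.00381). Its level was 3.47, 3.46 and 3.46 in Rb deleted 1, 2 and 3, against 3.02, 2.93 and 3.08 in Rb intact 1, 2 and 3. The Rb deleted arrays were nearly equal and lay above all Rb intact arrays. With slide as a block the difference was 0.46, which is also that of the first slide, and it no longer passed the threshold (limma adjusted p = 0.0594).

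Among the receptor chains Lifr, the LIF receptor, which oncostatin M and Clcf1 complexes also use, fell by 0.39 ± 0.06 on the log2 scale (SE, limma adjusted p = 0.00647). By its brightest probe, A_55_P2159259, its level was -1.39, -1.43 and -1.42 in Rb deleted 1, 2 and 3, against -1.09, -1.01 and -0.95 in Rb intact 1, 2 and 3. The groups did not overlap, and the Rb deleted arrays lay close together. With slide as a block the difference was -0.37, which is also that of the first slide, and it did not pass the threshold (limma adjusted p = 0.0965).

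The 3 Lifr probes did not give the same result. In a fit over single probes, 15.9% of 23047 probes passed limma's threshold. A_55_P2159259 did, with an adjusted p over probes of 0.0101. A_55_P2159264, designed on another Lifr transcript, read -4.20, -3.98 and -4.01 in Rb deleted 1, 2 and 3, against -3.45, -3.85 and -3.98 in Rb intact 1, 2 and 3, a difference of -0.31 ± 0.15 (SE, limma adjusted p = 0.214). A_51_P113182, designed on the same transcript as the brightest probe, differed by 0.15 ± 0.16 (SE, limma adjusted p = 0.546), with the opposite sign. Both had overlapping groups. With the mean of the probes in place of the brightest one the Lifr difference was -0.18 and its call was lost (limma adjusted p = 0.105).

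**Figure D2:**
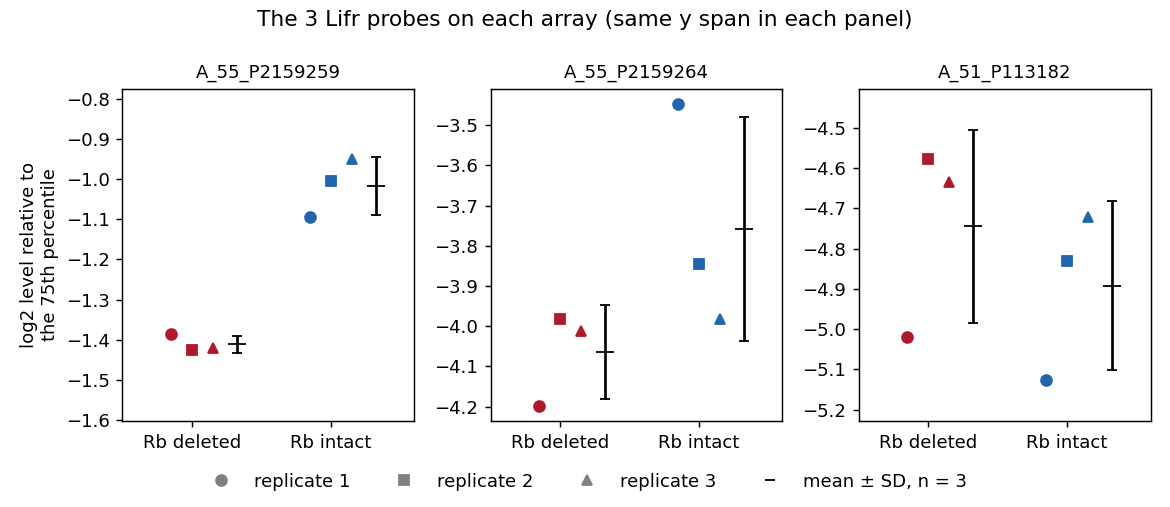
Log2 level relative to the array's 75th percentile for the 3 Lifr probes, with 1 point per array, Rb deleted left of Rb intact, and bars for mean ± SD (n = 3 each). The groups are apart for A_55_P2159259 and overlap for the other probes, whose arrays spread more widely.

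Il6ra, the ligand-binding chain for IL-6, read 1.36, 1.22 and 1.21 in Rb deleted 1, 2 and 3, against 1.43, 1.53 and 1.66 in Rb intact 1, 2 and 3. The groups did not overlap, with Rb deleted 1 and Rb intact 1 nearest to each other. The difference of -0.28 ± 0.08 (SE) did not pass the threshold (limma adjusted p = 0.0573). Without Rb intact 1 it was -0.33 and did (limma adjusted p = 0.0185), and with slide as a block or within the first slide it was -0.18 (limma adjusted p = 0.447 and 0.647).

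Il6st, which encodes gp130, read 1.46, 1.42 and 1.45 in Rb deleted 1, 2 and 3, against 1.44, 1.63 and 1.63 in Rb intact 1, 2 and 3. Rb intact 1 lay among the Rb deleted arrays and the other Rb intact arrays above them. The difference was -0.12 ± 0.07 (SE, 95% interval -0.29 to 0.05 before adjustment, limma adjusted p = 0.262). Without Rb intact 1 it was -0.19 and passed the threshold (limma adjusted p = 0.0135).

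Osmr, the oncostatin M receptor chain, did not pass the test, with all 6 arrays or without any 1 of them. It read 2.73, 2.78 and 2.80 in Rb deleted 1, 2 and 3, against 2.45, 2.68 and 2.82 in Rb intact 1, 2 and 3. The Rb deleted arrays lay inside the range of the Rb intact arrays. The difference was 0.12 ± 0.10 (SE, 95% interval -0.12 to 0.36 before adjustment, limma adjusted p = 0.430). It was 0.02 without Rb intact 1 and 0.20 without Rb intact 3 (limma adjusted p = 0.813 and 0.197). Leaving out Rb intact 1 gave 3 receptor chains lower, Il6ra, Il6st and Lifr, and left the 4 rises past the threshold, in a fit that called 37.2% of all tested genes, against 20.4% with all 6 arrays.

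**Figure D3:**
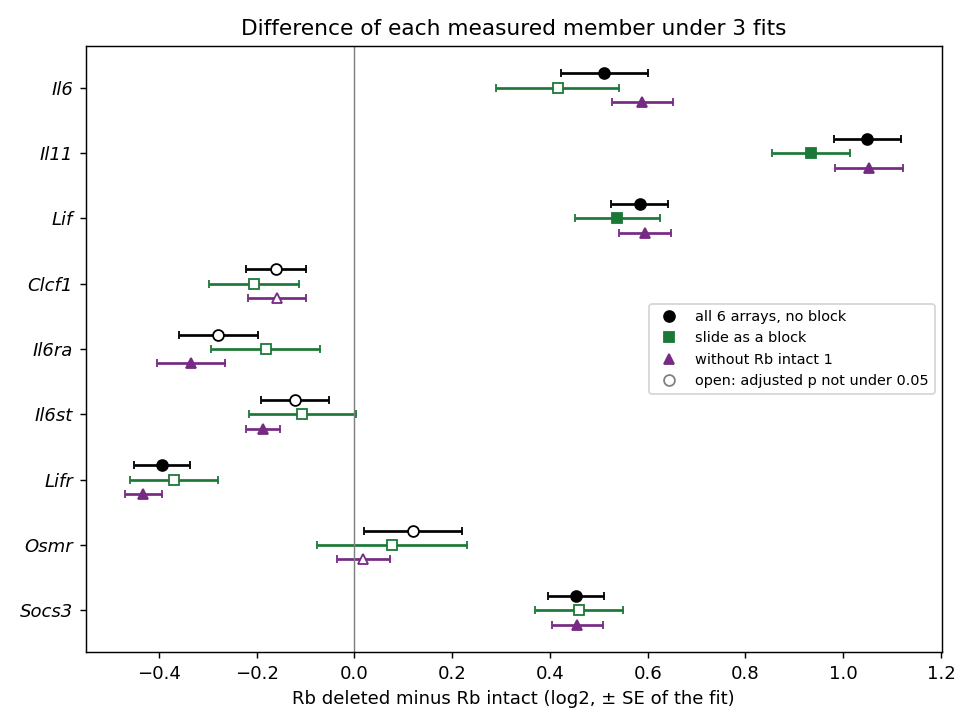
Log2 difference, Rb deleted minus Rb intact (± SE of the limma fit), for the 9 measured members, over all 6 arrays, with slide as a block and without Rb intact 1, with open symbols where the adjusted p was not under 0.05. Each member keeps its sign under the 3 fits, and with slide as a block the filled symbols are those of Il11 and Lif.

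Lif and Osm lie side by side on chromosome 11, and Osmr, on chromosome 15, was among the tested neighbours of Lifr. The neighbours of the 5 called members were looked up after the members' values were seen, taking the tested genes on either side, 2 each way. Of all tested genes 20.4% passed the threshold, so few calls among so few neighbours would be usual. None of the 4 neighbours of Il11 passed the threshold, with differences from -0.12 for Tmem238 to 0.12 for Cox6b2, and none of those of Lif, from -0.17 for Castor1 to 0.10 for Tbc1d10a. Of the other neighbours, Garem2 beside Il6 fell by 0.47 ± 0.07 and Pgs1 beside Socs3 rose by 0.31 ± 0.06 (SE, limma adjusted p = 0.00756 and 0.0197). Both calls were lost with slide as a block and in the first slide alone. Pgs1 also lost its call without any 1 array other than Rb intact 1 and Rb deleted 1.

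Il11 had the smallest p of the members, and the 5 other tested genes whose values followed it most closely over the 6 arrays were Tcf7, Tslp, Wdr36, Ak5 and Bex3. Pearson's r was 0.999 for each, a description over 6 arrays in 2 groups in which the gap between the groups sets most of r. All 5 rose, but they were chosen for following Il11 on these same arrays. Their direction and the order of their arrays came with that choice. Their differences and adjusted p-values are therefore a description and not separate evidence, and their calls with slide as a block are not given here. Tslp, an epithelial cytokine gene, read 4.38, 4.58 and 4.59 in Rb deleted 1, 2 and 3, against 3.32, 3.31 and 3.42 in Rb intact 1, 2 and 3. Ak5, an adenylate kinase gene, rose by 0.81 ± 0.06 and Tcf7, a transcription factor gene of Wnt signalling, by 0.48 ± 0.05 (SE, limma adjusted p = 0.000603 and 0.00197).

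The rest of the pathway was taken from 6 lists with 79 genes, of which 71 were tested. Of these 10 rose and 7 fell, with a median difference of 0.04. Of all tested genes 9.67% rose and 10.8% fell, and these shares stand beside each list and marker count below. With slide as a block 2 of the 71 were called higher, Fos and Pim1, and 4 lower, Serpina3n, Hp, Saa2 and Saa3. That fit called 4.89% of all tested genes. Among 7 tested ligands and receptors of the family outside the 10 members, the median was -0.07. Il11ra1, the receptor chain for IL-11, fell by 0.29 ± 0.06 (SE, limma adjusted p = 0.0252). It read 5.73, 5.67 and 5.63 in Rb deleted 1, 2 and 3, against 6.05, 5.90 and 5.93 in Rb intact 1, 2 and 3. Its call was lost with slide as a block and without any 1 array other than Rb intact 1, and a near-identical mouse gene may share its probe. Cntf, Cntfr, Ctf1, Ctf2 and Il27 did not pass the test, and Ebi3, Il27ra, Il31 and Il31ra did not pass the filter on dim probes.

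Of 13 signal transducers 2 rose and none fell, with a median of 0.13. Jak2, a kinase bound to gp130, read 2.02, 2.02 and 1.92 in Rb deleted 1, 2 and 3, against 1.55, 1.58 and 1.68 in Rb intact 1, 2 and 3, and rose by 0.38 ± 0.06 (SE, limma adjusted p = 0.00859). Jak3, a kinase of receptors with the common gamma chain, rose by 0.72 ± 0.13 (SE, limma adjusted p = 0.0138). Both calls were lost with slide as a block and without Rb deleted 2. Stat3 itself, the main transcription factor downstream of gp130, gave 0.004 ± 0.064 (SE, limma adjusted p = 0.972), and Jak1 gave 0.04 ± 0.10 (SE, limma adjusted p = 0.784). Sos1, Shc1, Grb2 and Tyk2 did not pass the test.

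None of the 12 other negative regulators was called in either direction by limma, and the median was 0.04. Of the 12, 2 had an unadjusted p under 0.05. Such a p was common: Clcf1, with an unadjusted limma p of 0.038, ranked 4455 by p among the 13729 tested genes. Socs7 gave 0.22 ± 0.07 and Socs2, an inhibitor of growth hormone signalling, 0.24 ± 0.10 (SE, limma adjusted p = 0.0841 and 0.14). Socs1, which inhibits JAK kinases, gave -0.06 ± 0.05 (SE, limma adjusted p = 0.408). Pias2, Pias3, Ptpn2 and Ptpn6 did not pass the test either.

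Known Stat3 targets and acute phase genes moved in both directions. Of 24 tested, 5 rose and 6 fell, and the median was 0.00 both as fitted and with Saa2 at its bound. Those that fell were Serpina3n, Hp, Saa1, Saa2, Saa3 and Lcn2, and those that rose were Fos, Pim1, Junb, Vegfa and Myc. Lrg1, an acute phase gene, had a larger positive difference than any of these, 1.08 ± 0.34 (SE, 2.11-fold), but did not pass the threshold (limma adjusted p = 0.0725). It read -5.32, -4.36 and -4.23 in Rb deleted 1, 2 and 3, against -6.11, -5.79 and -5.25 in Rb intact 1, 2 and 3, and the groups overlapped. Lrg1 was well above background on 3 Rb deleted arrays and on 1 Rb intact array, so the size of its difference rests partly on dim signals. Without Rb deleted 1 it passed. Lbp, the lipopolysaccharide-binding protein gene of the acute phase, gave 0.09 ± 0.09 (SE, limma adjusted p = 0.504).

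The acute phase gene Serpina3n, a serine protease inhibitor, fell by 1.38 ± 0.08 on the log2 scale (SE, limma adjusted p = 0.000293). It read -3.94, -3.80 and -3.73 in Rb deleted 1, 2 and 3, against -2.50, -2.48 and -2.35 in Rb intact 1, 2 and 3. Hp, which encodes haptoglobin, fell by 1.34 ± 0.11 (SE, limma adjusted p = 0.000791), with -2.28, -2.11 and -2.30 in Rb deleted 1, 2 and 3, against -0.74, -1.10 and -0.84 in Rb intact 1, 2 and 3. The groups were apart for both genes. The serum amyloid A gene Saa3 fell by 0.67 ± 0.07 and Saa1 fell by 0.77 ± 0.12 (SE, limma adjusted p = 0.00163 and 0.00715), and with slide as a block the Saa1 call was lost. Saa2 was well above background on the 3 Rb intact arrays and on none of the Rb deleted arrays, so it passed the filter through the Rb intact group alone. It was at least 2.77-fold lower in Rb deleted cells, a bound that was not tested. Its call (limma adjusted p = 0.000486) is for the fitted difference, which uses Rb deleted signals below that mark. The Saa genes are close paralogs, and whether their probes share signal was not tested. Lcn2, which encodes the siderophore-binding lipocalin 2, fell by 0.37 ± 0.08 (SE, limma adjusted p = 0.0284), a call lost with slide as a block and without any 1 array other than Rb intact 1.

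Among the targets that rose, Pim1, a serine/threonine kinase gene, rose by 0.92 ± 0.10 (SE, 1.89-fold, limma adjusted p = 0.00197). It read -3.57, -3.49 and -3.39 in Rb deleted 1, 2 and 3, against -4.46, -4.53 and -4.23 in Rb intact 1, 2 and 3. Fos, a subunit of AP-1, rose by 0.72 ± 0.06 (SE, 1.65-fold, limma adjusted p = 0.000791), and Junb, another subunit, by 0.37 ± 0.05 (SE, limma adjusted p = 0.00482). The call of Junb was lost with slide as a block and that of Fos was kept. Fos read -3.04, -2.94 and -2.99 in Rb deleted 1, 2 and 3, against -3.65, -3.74 and -3.76 in Rb intact 1, 2 and 3, with no overlap. Vegfa, an angiogenic growth factor gene, rose by 0.50 ± 0.09 and Myc, a growth regulator, by 0.30 ± 0.08 (SE, limma adjusted p = 0.0138 and 0.0443). Both calls were lost with slide as a block, and the call of Vegfa was also lost without Rb deleted 2 or Rb deleted 3, and that of Myc without any 1 array other than Rb intact 1. The transcription factor genes Cebpb and Cebpd, which act on acute phase promoters, gave 0.05 ± 0.08 and 0.01 ± 0.07 (SE, limma adjusted p = 0.691 and 0.896).

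Of 10 RNA-binding regulators of cytokine transcripts, 2 rose and none fell, with a median of 0.02. Arid5a, whose protein stabilises Il6 transcripts, read 0.83, 0.95 and 0.82 in Rb deleted 1, 2 and 3, against 0.43, 0.09 and 0.25 in Rb intact 1, 2 and 3. It rose by 0.61 ± 0.10 (SE, 1.52-fold, limma adjusted p = 0.0085), a call lost with slide as a block. Zfp36l1, a factor that promotes decay of AU-rich transcripts, rose by 0.26 ± 0.06 (SE, limma adjusted p = 0.0342), and its call was lost with slide as a block and without any 1 array other than Rb intact 1. Zc3h12a, whose product Regnase-1 cuts Il6 transcripts, read -1.12, -1.21 and -1.23 in Rb deleted 1, 2 and 3, against 0.02, -0.89 and -0.82 in Rb intact 1, 2 and 3. Rb intact 1 stood above the other arrays of its group, and the difference of -0.62 ± 0.24 did not pass the threshold (SE, limma adjusted p = 0.116). Of 5 genes of receptor shedding none was called by limma, and 1 had an unadjusted p under 0.05, which was common among all tested genes. Adam17, the protease that sheds the IL-6 receptor, gave -0.004 ± 0.066 (SE, limma adjusted p = 0.974).

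**Figure D4:**
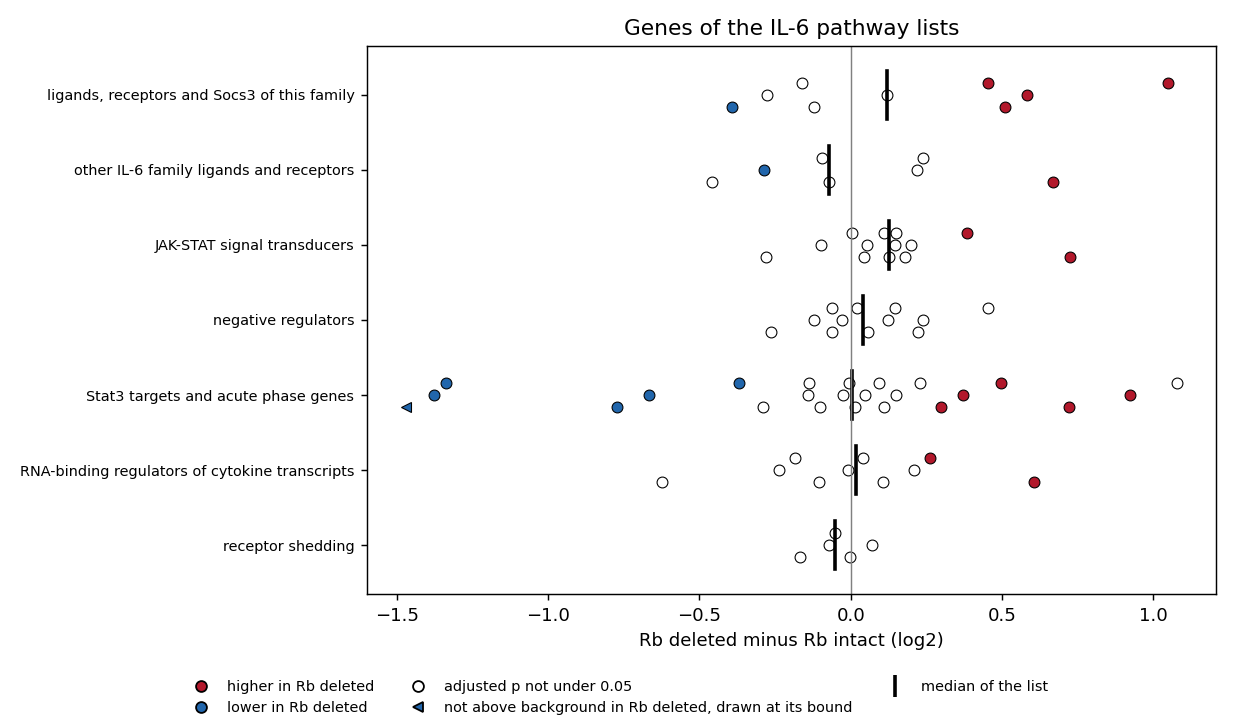
Log2 difference, Rb deleted minus Rb intact, for the 9 measured members in the top row and for the tested genes of the 6 pathway lists under it, with 1 point per gene, filled where limma's adjusted p was under 0.05, and a bar at each list's median. Saa2 is drawn at its bound and the Stat3 targets and acute phase genes hold calls in both directions.

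Cell type markers differed between the groups beside these values, and their part in the results was not tested. In bulk cultures, fewer cells of a type and less RNA per cell cannot be told apart. The summed level of the 5 measured basal markers, linear and relative to the 75th percentile, was 33.5 to 35.2 in Rb deleted and 43.2 to 49.2 in Rb intact cultures. Most of this sum came from Itga6 and Cd44, with mean log2 levels of 4.88 and 3.83 in Rb intact cells, so it says little about the other markers. The keratin gene Krt14 gave 0.07 ± 0.14 and Cd44 gave -0.12 ± 0.06 (SE, limma adjusted p = 0.758 and 0.206). The other 3 of the 5, Itga6, Itgb4 and Trp63, fell. With slide as a block none of the 3 was called. The Itgb4 call was also lost without Rb deleted 1 or Rb deleted 3, and that of Trp63 without any 1 array other than Rb intact 1. The 10 mesenchymal markers summed to 365 to 393 in Rb deleted and 395 to 415 in Rb intact cultures, and Acta2 and Lum fell, of which Lum lost its call with slide as a block. The 5 luminal markers summed to 9.60 to 11.1 in Rb deleted and 11.1 to 12.4 in Rb intact cultures with no call. The 3 leukocyte markers above background summed to 4.12 to 4.85 in Rb deleted and 2.74 to 6.79 in Rb intact cultures, where the lowest was Rb intact 1, and the 4 endothelial markers to 3.30 to 4.0 in Rb deleted and 3.81 to 3.95 in Rb intact cultures, with a fall of Vwf, which was well above background on 1 of 3 Rb deleted arrays.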

How the data were processed

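Per the file headers, the authors made the deposited intensity values in Feature Extraction 11.0.1.1 (Agilent), and the submitters' processing notes name 10.7.3.1. The processed intensity is background-subtracted, with no scaling between arrays. A log2 table that the authors also deposited comes without a stated scale or centring. It matched the log2 processed intensity less 1 constant per column (tolerance 0.01), column medians were -0.52 to -0.49, and it served as an alternative.

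From the 43020 non-control spots per array, outlying spots were dropped and spots of a probe were averaged on the log2 scale. Each array's 75th percentile, taken over all 43020 spots with the outlying ones included, was then subtracted. Probes had to be well above background on every array of either group. Accessions matched 27427 probes to 20832 genes of a GRCm38.p6 table, used for names and neighbours only, since the array was designed on mm9. The kept probe with the highest mean stood for its gene. The comparison used limma 3.58.1 (R 4.3.3), first tested on simulated data; levels are mean ± SD, differences Rb deleted minus Rb intact ± SE, and the number of arrays limits precision. A gene is said to rise or fall at an adjusted p under 0.05.

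The members, lists and settings were chosen with earlier results of these data known. Up to 6 genes per list with the smallest p were named; the other list genes named were chosen after their values were seen. Some genes and sample details are not reported here.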

Additional observations from a re-analysis of the deposited data

How the results depend on the processing

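No member changed sign in 171 runs with other settings, over 9 members, but in many of these runs the sign could not change. The filters, a trended or robust variance and the replicate block alter the test or the gene set and leave a member's difference as it was. Slide as a block and the first slide alone share the same difference. Of the 171 runs, 154 kept the side of the threshold, 10 lost a call and 7 gained a call. Without 1 array at a time, 3 to 4 members were higher and 1 to 3 lower, the 71 pathway genes gave 5 to 21 higher and 5 to 10 lower. The higher counts were lowest without Rb deleted 2, and for members also without Rb deleted 3; the pathway counts and the lower members were highest without Rb intact 1, and Rb1 gave -1.97 to -1.95. The counts over all 6 arrays were 4 and 1 members and 10 and 7 pathway genes, with 2806 genes called in all. With slide as a block 2 members were higher, Il11 and Lif, and 0 lower by limma, where 1 had an unadjusted p under 0.05 downward. That fit gave 2 pathway genes higher and 4 lower, with 672 genes called in all. Its differences come from Rb deleted 1 alone against the Rb intact arrays. In the first slide, 1 member was higher and 0 lower (1 downward at an unadjusted p under 0.05), 0 pathway genes higher (8 at an unadjusted p under 0.05) and 1 lower, with 151 genes called; that fit has 1 Rb deleted array. Array weights gave 4 members lower, and 23 pathway genes higher and 11 lower (6369 genes called). Normexp on the median signal, a trended variance and an adjusted p under 0.1 each gave 2 members lower, Il6ra and Lifr; the mean of a gene's probes gave 0 (3 downward at an unadjusted p under 0.05). The thresholds of 0.1 and 0.01 gave 17 and 6 pathway genes higher. The cause of these shifts was not tested. The mean spot signal was not used here, so normexp ran on the median signal.

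The replicate numbers in the titles were not shown to pair the samples: deviations of same-numbered arrays correlated at -0.03, -0.05 and 0.02 over genes. With the replicate block 4 members were higher and 1 lower, and 9 pathway genes were higher and 5 lower. Signal over background limits Osm, which no array measured.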
